A study of Mus musculus with 26 samples.

Results

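Eya4 was 2.09-fold lower in frontal cortex of Adnp frameshift mice than in wild-type mice, and it is described here with 7 further genes of the network that EYA, SIX-family and DACH proteins form. The 8 members (Eya1, Eya2, Eya3, Eya4, Six3, Six4, Dach1 and Dach2) were picked by name out of 55487 genes in each count table, and all 8 passed the filter on low counts. Eya4 was picked because its adjusted p of 0.0197 in the comparison of mutant with wild-type mice was under 0.05. Its difference is therefore a description and not independent evidence, and the same holds for the other members in this comparison. RNA came from 7 mice with a frameshift in Adnp on 1 allele (HET) and 7 wild-type littermates (WT), all adolescent per the design text, with no treatment named. Strain, sex and the number of litters are not stated in the labels. Adnp encodes a zinc-finger homeodomain protein of chromatin complexes. Open chromatin was mapped by ATAC-seq, in which a transposase cuts accessible DNA, and is available as 1 list of peaks for HET and 1 for WT.

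EYA proteins are coactivators that also carry a protein tyrosine phosphatase domain and do not bind DNA by themselves. SIX-family homeodomain proteins bind DNA and bring EYA proteins to their target genes, and DACH proteins, relatives of the SKI corepressors, act on the same targets. The network was described in the fly eye (eyes absent, sine oculis and dachshund) and in mammals is best known from ear, kidney, muscle and eye development. In the forebrain Six3 is known as a patterning gene and as a gene of developing striatal neurons.

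The 7 HET libraries held 33280785 to 47079906 counts and the 7 WT libraries 32814841 to 48291175. The excitatory neuron markers of cortex were present in all 14 libraries, with summed CPM (counts scaled to a library of 1e+06, with TMM factors) from 908 to 6508 in HET and from 2814 to 8454 in WT. Markers of striatal projection neurons (235 to 3038 CPM in HET, 239 to 2150 CPM in WT) and of thalamic neurons (170 to 1906 CPM in HET, 155 to 670 CPM in WT) were present as well, with wide ranges among libraries of either genotype. None of the 8 excitatory, 10 striatal and 8 thalamic markers was at 0 in all libraries. The highest excitatory marker, Camk2a, averaged 1924 ± 867 CPM in HET mice and 3183 ± 869 CPM in WT mice (± SD over 7 libraries each, here and below). Pde10a, the highest striatal marker, averaged 232 ± 228 CPM in HET and 175 ± 99.6 CPM in WT. Rora, the highest thalamic marker in WT, averaged 121 ± 81.9 CPM in HET and 80.4 ± 21.9 CPM in WT. The highest thalamic marker in HET was Slc17a6, at 188 ± 144 CPM, against 65.9 ± 44.2 CPM in WT. Of the markers of 8 other cell types and tissues edgeR called 0. Over all 18050 genes tested, 22.2% had an unadjusted p under 0.05 and 46.7% a negative log2 fold change (HET over WT). All 6 microglia markers had negative log2 fold changes (HET over WT), 3 of them at an unadjusted p under 0.05 (median -0.24), and all 6 oligodendrocyte markers had positive ones, 0 of them at that level (median 0.15). Interneuron markers were split, with 3 positive and 5 negative, and 1 passed an unadjusted p of 0.05 (Npy, 29.9 ± 15.3 CPM in HET and 58.4 ± 15.8 CPM in WT), while the highest of them, Gad1, averaged 469 CPM in HET and 424 CPM in WT. Choroid plexus markers had 2 positive and 3 negative, with Otx2 alone under 0.05 (5.62 ± 3.64 CPM in HET, 1.82 ± 1.48 CPM in WT). Of astrocyte, endothelial, meningeal and muscle markers 4 of 6, 4 of 5, 5 of 6 and 1 of 2 tested were positive, and Slc1a3 of astrocytes alone had an unadjusted p under 0.05 (520 CPM in HET, 598 CPM in WT). The highest markers of the other lists were Mbp of oligodendrocytes (2541 CPM in HET, 2315 CPM in WT), Csf1r of microglia (91.0 CPM in HET, 105 CPM in WT), Flt1 of endothelium (77.2 CPM in HET, 74.6 CPM in WT), Col1a2 of meninges (37.6 CPM in HET, 33.5 CPM in WT), Ttr of choroid plexus (129.6 CPM in HET, 153 CPM in WT) and Acta1 of muscle (8.62 CPM in HET, 10.4 CPM in WT). Beyond the marker relations and covariate fits given below, the part of these markers in the results that follow was not tested.

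Compared per length of exon (RPKM, CPM divided by exonic length in kb), Eya3 was the most abundant member in both genotypes. It averaged 5.29 ± 0.451 RPKM in HET and 5.92 ± 0.566 RPKM in WT. Six3 came next (4.53 ± 2.57 RPKM in HET, 2.71 ± 2.86 RPKM in WT) and Dach1 after it (2.80 ± 1.27 RPKM in HET, 1.53 ± 0.913 RPKM in WT). These 3 were not cleanly ordered library by library. Eya3 exceeded Six3 in 4 of 7 HET and 6 of 7 WT libraries, and Six3 exceeded Dach1 in 5 of 7 HET and 4 of 7 WT libraries. Eya2 (1.602 ± 0.478 RPKM in HET, 1.21 ± 0.501 RPKM in WT) and Eya1 (1.09 ± 0.378 RPKM in HET, 1.38 ± 0.246 RPKM in WT) changed places between the genotypes within their spread. Eya4 stood at 0.315 ± 0.0615 RPKM in HET and 0.660 ± 0.159 RPKM in WT, below both Eya1 and Eya2 on average in each genotype. Dach2 (0.243 ± 0.0766 RPKM in HET, 0.0984 ± 0.0566 RPKM in WT) and Six4 (0.148 ± 0.0695 RPKM in HET, 0.141 ± 0.0246 RPKM in WT) were the lowest. Dach2 lay above Six4 in 6 of 7 HET libraries, whereas Six4 lay above Dach2 in 5 of 7 WT libraries.

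**Figure D1:**
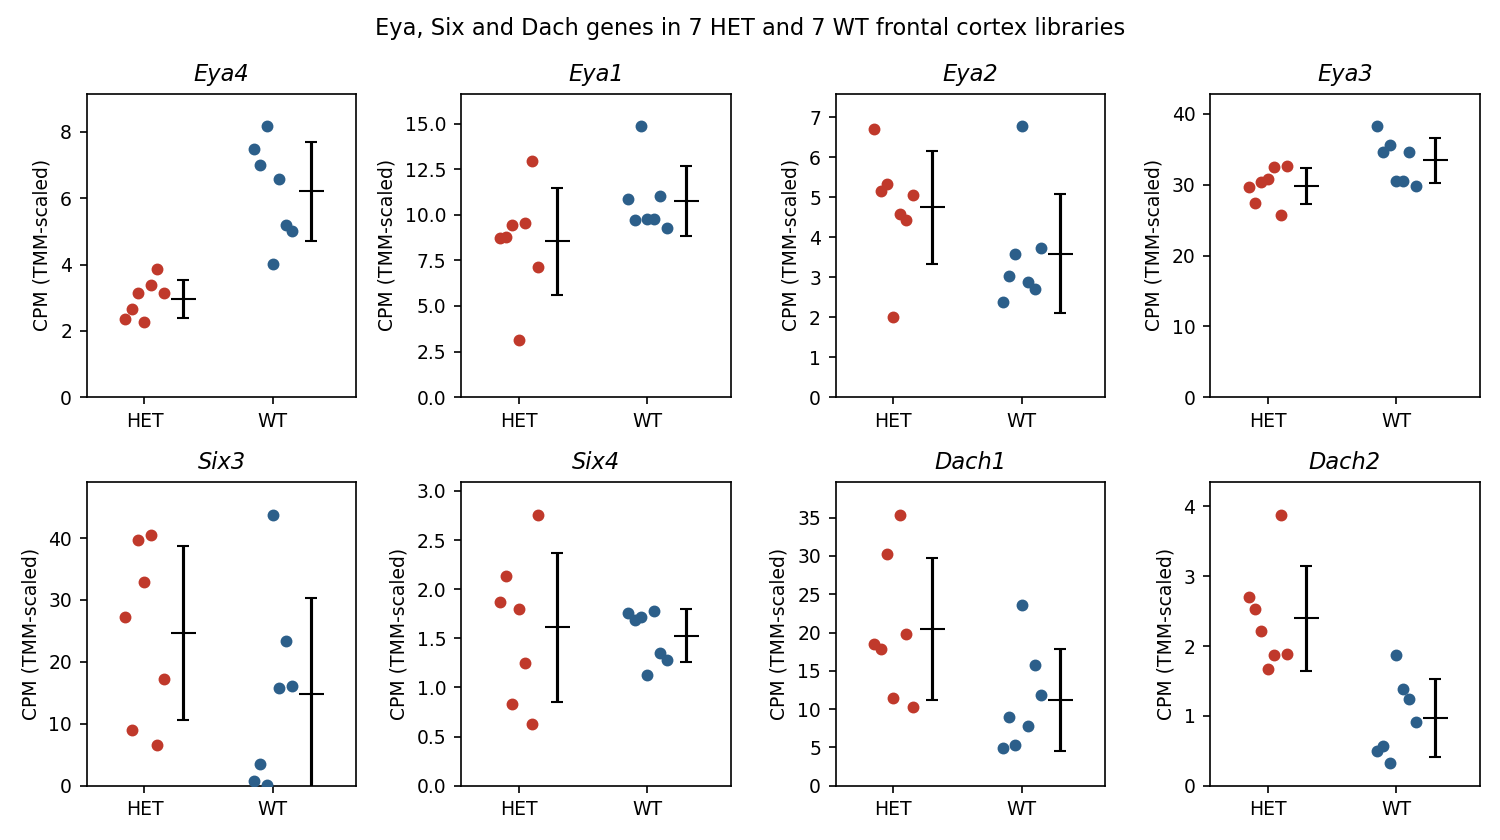
Each panel shows 1 gene, with a point per library (7 HET at left, 7 WT at right) in TMM-scaled CPM and the mean ± SD beside the points; the lower SD bar of Six3 in WT runs below 0 and is cut there. The HET points of Eya4 lie between 2.26 and 3.86 CPM, all under the lowest WT point at 4.03 CPM, and the other 7 genes overlap between the genotypes.

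Eya4 (ENSMUSG00000010461, GRCm38 chromosome 10, 23102963 to 23350786, minus strand) encodes a coactivator and phosphatase whose human counterpart is mutated in a hereditary late-onset hearing loss. It received 88 to 152 counts per HET library and 188 to 352 per WT library. On the CPM scale the lowest, median and highest HET libraries stood at 2.26, 3.14 and 3.86, against 4.03, 6.59 and 8.18 in WT. All 7 HET libraries lay below every WT library, so the groups did not overlap. HET libraries averaged 2.97 ± 0.579 CPM and WT libraries 6.21 ± 1.498 CPM, a log2 fold change of -1.06 (SE 0.17, 95% interval from -1.43 to -0.70), which is 2.09-fold lower in HET. Groups that do not overlap with HET below WT were found for 1 of 8 members and for 0.283% of the 18050 genes tested. With edgeR's quasi-likelihood test and a threshold of 0.05 on the adjusted p, 1 of 8 members and 0.382% of all genes tested were lower in HET, 0 members and 0.587% were higher, and 1 member and 0.97% passed in either direction. Since Eya4 was chosen on this contrast, nothing is read from these shares. As tissue pieces were sequenced in bulk, fewer cells that express Eya4 and less Eya4 RNA per cell cannot be told apart.

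The Eya4 call in edgeR was near the threshold, while DESeq2 gave an adjusted p of 2.18e-06 and limma-voom one of 0.00657. Left out 1 at a time, HET 1, HET 2, HET 7, WT 1 and WT 5 each ended it (adjusted p from 0.0510 to 0.0616 in edgeR), with log2 fold changes from -1.08 to -1.02. Without WT 4 it was -1.15 (adjusted p 0.00287 in edgeR). HET 1 to HET 4 are labelled total RNA and the other 10 libraries polyA RNA, although the labels give all of them the same protocol. Among the polyA-labelled libraries alone, HET 5 to HET 7 against all WT, the log2 fold change was -0.85 (SE 0.22, adjusted p 0.412 in edgeR, where 4 genes in all were called), and no WT library was labelled total RNA.

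Within each genotype the Eya4 level moved with the excitatory neuron markers. All 8 markers had negative log2 fold changes (HET over WT), and edgeR called 0. Of these 8 markers 5 had an unadjusted p under 0.05, against 22.2% of all genes tested. Averaged over these markers, log2 CPM stood at 6.16 ± 1.5 in HET mice, against 7.60 ± 0.806 in WT mice. A total of 48 relations between 8 members, 3 marker lists and 2 genotypes were computed, each over 7 libraries with a two-sided exact permutation test and Benjamini-Hochberg adjustment over all 48. In HET, Eya4 and the excitatory mean had Pearson's r = 0.867 (exact p = 0.000794, adjusted 0.00952), Spearman's rho = 0.893 (exact p = 0.0123) and r = 0.890 without the 2 libraries farthest from the median of the marker mean. In WT, r was 0.929 (exact p = 0.000794, adjusted 0.00952), rho 0.964 (exact p = 0.00278) and r without 2 libraries 0.954. The RNA label runs along the same axis in HET. Excitatory means were 3.22 to 6.78 in HET 1 to HET 4 (total RNA) and 6.89 to 7.56 in HET 5 to HET 7 (polyA RNA). Eya4 stood at 2.26 to 3.15 CPM in the former and 3.14 to 3.86 CPM in the latter. The permutation treated all 7 HET libraries alike, and the part of the label in this relation was not tested. With the excitatory mean as a covariate in edgeR the log2 fold change of Eya4 was -0.74 (SE 0.15, adjusted p 0.0798), and with the excitatory, striatal and thalamic means together -0.72 (SE 0.14, adjusted p 0.0671). Both values were smaller in size than without covariates, neither passed 0.05, and both had the same sign. In these 2 fits edgeR called 13 and 21 genes in all, against 175 without covariates.

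**Figure D2:**
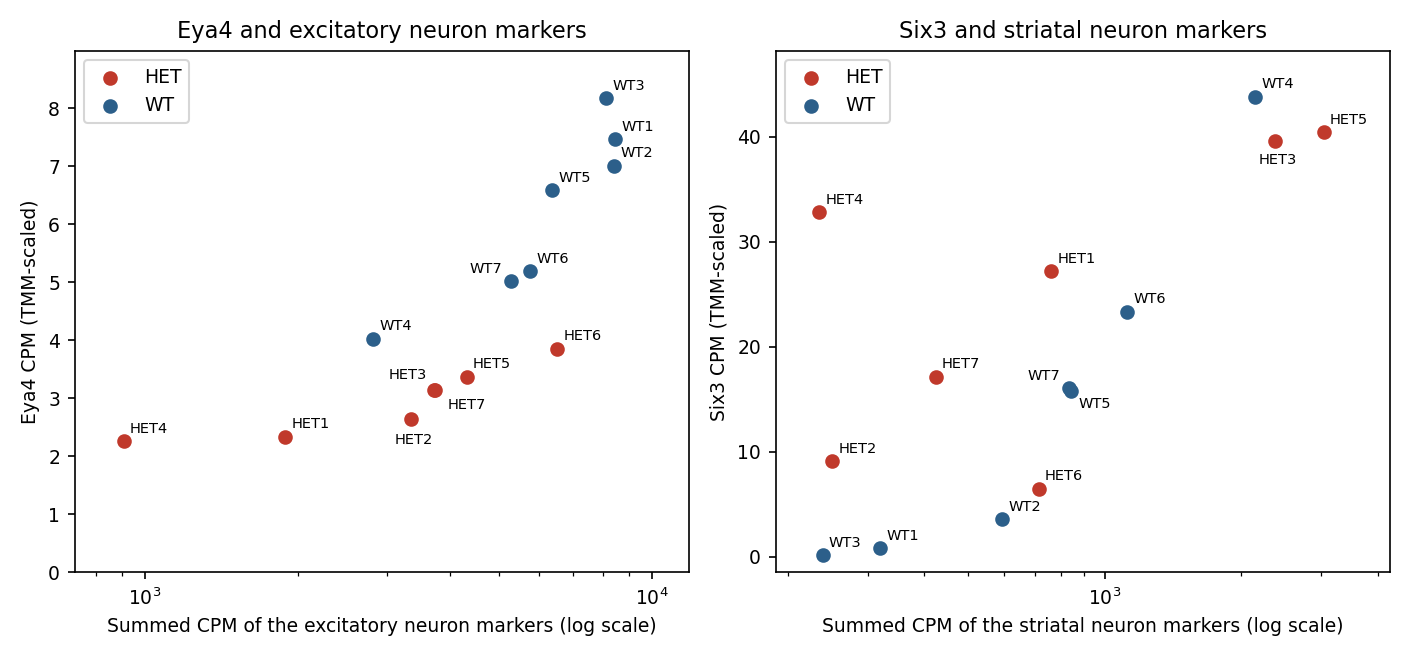
Points are libraries (7 HET, 7 WT); the left panel plots Eya4 CPM and the right panel Six3 CPM against the summed CPM of excitatory and of striatal neuron markers on a log scale. Eya4 goes up with the excitatory markers in both genotypes; Six3 goes up with the striatal markers in WT, and HET 4 lies apart at 32.8 CPM of Six3 with 235 CPM of markers.

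The 5 genes most like Eya4 over the 14 libraries, after subtracting each genotype's mean, were Foxo3 (a forkhead transcription factor, r = 0.968), Slc30a4 (a zinc transporter, r = 0.958), Pip4k2c (a phosphoinositide kinase, r = 0.958), Mapk14 (the kinase p38 alpha, r = 0.958) and Brinp1 (r = 0.955). These r values were picked as the highest over the genes tested and carry no test. None of the 5 was called in HET against WT in edgeR. Their log2 fold changes were -0.22 for Foxo3, -0.31 for Slc30a4, -0.63 for Pip4k2c, -0.25 for Mapk14 and -0.50 for Brinp1.

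The peak lists held 30862 HET and 19272 WT peaks, and their names point to libraries merged within a genotype, so peaks have no replicate check and no test was run. Of all HET peaks 55.9% overlapped a WT peak by at least 1 base, and of all WT peaks 89.1% overlapped a HET peak. At the members, 12 HET peaks and 2 WT peaks lay in or within 5 kb of a gene, each with its centre inside the gene. Eya4 had 2 HET peaks and no WT peak. The one near the start of the gene (GRCm38 chromosome 10, 23349483 to 23349787, 305 bases) covered bases 103 to 407 after the more downstream of its 2 RefSeq starts, and the other (23144727 to 23144918, 192 bases) lay 205964 bases into the gene, counted from the start of the Ensembl gene model. The nearest HET peak beyond the 5 kb margin was 12.1 kb from Eya4 and the nearest WT peak 371 kb. Peaks in the HET list alone were found at 5 of 8 members (Eya4, Eya2, Six3, Six4 and Dach1) and at 9.29% of the 18050 tested genes, which are shorter (median 20664 bases, against 158989 bases for the members). Eya1 and Eya3 had peaks in both lists, as did 71.9% of tested genes. Dach2 had none, as did 17.6%, and no member had peaks in the WT list alone (1.14% of tested genes). The HET list is the longer one. When it was cut to its 19272 widest peaks, 4 member peaks were left in it, at the starts of Eya1 and Eya3 and 2 at Dach1, and neither Eya4 peak remained.

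**Figure D3:**
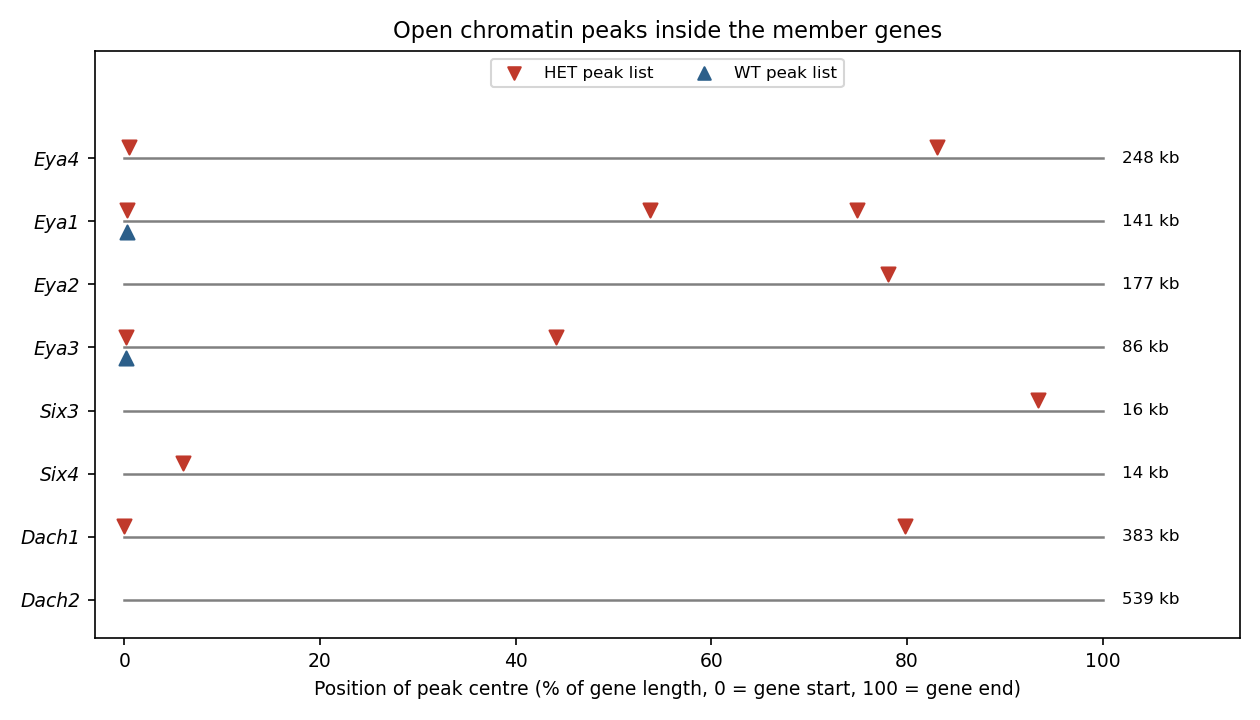
Each line is 1 gene from its start (0) to its end (100), with its length at right; triangles above the line mark the centres of HET-list peaks and triangles below it those of WT-list peaks, as percent of gene length. Of the 12 HET and 2 WT peaks, the 2 WT peaks lie at the starts of Eya1 and Eya3, where the HET list also has a peak.

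Promoter windows from RefSeq (GRCm38.p6, 250 bases before to 50 after a start) were at hand for Eya3, Eya4, Six3, Six4, Dach1 and Dach2. The windows of Eya4, Eya3 and Dach1 are printed because they show a start with no peak over it, a start open in both lists and a start open in the HET list alone. Capitals mark bases inside a HET-list peak, and all are written 5′ to 3′ on the strand of the gene.
Eya4: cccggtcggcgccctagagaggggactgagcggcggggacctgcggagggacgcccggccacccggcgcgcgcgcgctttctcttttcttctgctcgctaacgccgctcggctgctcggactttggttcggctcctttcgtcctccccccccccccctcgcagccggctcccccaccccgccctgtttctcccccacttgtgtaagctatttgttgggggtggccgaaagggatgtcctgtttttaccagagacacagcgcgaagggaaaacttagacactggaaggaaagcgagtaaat
Eya3: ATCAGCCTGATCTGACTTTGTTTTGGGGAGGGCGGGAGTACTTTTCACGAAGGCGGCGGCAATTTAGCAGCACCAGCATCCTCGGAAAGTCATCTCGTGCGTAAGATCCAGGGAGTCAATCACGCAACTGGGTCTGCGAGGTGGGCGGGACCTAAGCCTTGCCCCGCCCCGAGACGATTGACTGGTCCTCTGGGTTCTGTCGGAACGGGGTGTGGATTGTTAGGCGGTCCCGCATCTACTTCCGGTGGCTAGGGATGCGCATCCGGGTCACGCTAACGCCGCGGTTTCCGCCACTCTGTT
Dach1: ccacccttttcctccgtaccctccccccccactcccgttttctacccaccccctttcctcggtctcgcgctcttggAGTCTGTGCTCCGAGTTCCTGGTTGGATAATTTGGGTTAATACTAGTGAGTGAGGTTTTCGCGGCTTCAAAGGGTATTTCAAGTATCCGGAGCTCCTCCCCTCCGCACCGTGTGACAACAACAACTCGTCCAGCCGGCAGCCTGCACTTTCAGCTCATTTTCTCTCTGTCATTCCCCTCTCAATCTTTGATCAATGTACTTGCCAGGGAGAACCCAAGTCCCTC
The Eya4 window (chr10:23349841-23350140, minus strand) holds no base in a peak of either list, and 53 bases separate its end from the HET peak that follows. It has 64.0% G or C and 28 CpG pairs, against medians of 52.7% and 7 over 32851 windows. The Eya3 window has 59.3% and 25 CpG pairs, and the Dach1 window 54.0% and 13. All 300 bases of the Eya3 window (chr4:132638796-132639095, plus strand) lay in a HET peak and 233 in a WT peak. In the Dach1 window (chr14:98169716-98170015, minus strand) 224 bases lay in a HET peak and 0 in a WT peak. Over all windows 33.9% overlapped a HET peak and 30.3% a WT peak. The MEF3 motif TCAGGTT, which SIX-family proteins are known to bind, was searched on both strands. A match stood in 1 of the members' windows, that of the more downstream start of Six4 (chr12:73113196-73113495, minus strand), as in 4.07% of all windows. The cyclic AMP response element TGACGTCA matched none of them and 1.79% of all windows.

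Eya1, mutated in branchio-oto-renal syndrome in humans (ENSMUSG00000025932, chromosome 1, 14168954 to 14310235, minus strand), stood at 3.14, 8.80 and 12.9 CPM in the lowest, median and highest HET library, against 9.29, 9.80 and 14.9 CPM in WT. The groups overlapped, and HET 4 was the lowest library. In edgeR the log2 fold change was -0.33 (SE 0.22, 95% interval from -0.80 to 0.13). With the excitatory mean as a covariate it was 0.03 (SE 0.175), smaller than its SE, so no direction can be read from it. In HET, Eya1 moved against the thalamic marker mean (r = -0.945, exact p = 0.00179, adjusted 0.0171; rho = -0.964, exact p = 0.00278; r = -0.738 without 2 libraries), and HET 4 had the highest thalamic sum at 1906 CPM. In WT the same relation had r = -0.491 (exact p = 0.214, adjusted 0.312), and the difference between the genotypes was not tested. The peaks at the start of Eya1 covered 14309612 to 14309989 in the HET list and 14309671 to 14310008 in the WT list, and 2 further HET peaks lay inside the gene.

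Eya2 (ENSMUSG00000017897, chromosome 2, 165595032 to 165771727, plus strand) stood at 2.01, 5.05 and 6.69 CPM in the lowest, median and highest HET library, against 2.38, 3.03 and 6.78 CPM in WT. HET 4 was again the lowest HET library and WT 4 lay far above the other WT libraries. Its log2 fold change was 0.40 (SE 0.26, 95% interval from -0.14 to 0.95, adjusted p 0.368 in edgeR). It passed the threshold in 1 of 25 alternatives, the one without HET 4 and WT 4, the libraries of each genotype lowest in excitatory markers (0.77, SE 0.15, adjusted p 0.0128 in edgeR, chosen after seeing the data). With single libraries left out the adjusted p lay between 0.0756 (without WT 4) and 0.563 (without HET 1). Its single HET peak (165732767 to 165733049) lay inside the gene, far from its start.

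Eya3, known for its part in the pituitary response to day length in mammals (ENSMUSG00000028886, chromosome 4, 132638987 to 132724765, plus strand), varied least among the members, with a coefficient of variation of 8.52% in HET and 9.56% in WT. It stood at 25.7, 30.4 and 32.6 CPM in the lowest, median and highest HET library, against 29.9, 34.6 and 38.3 CPM in WT. The groups overlapped, with 3 HET libraries below the lowest WT library. Its log2 fold change was -0.16 (SE 0.07, unadjusted 95% interval from -0.31 to -0.01), with an adjusted p of 0.195 in edgeR. It passed the threshold in 0 of 25 alternatives.

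Six3, a homeodomain gene of the forebrain (ENSMUSG00000038805, chromosome 17, 85613608 to 85629302, plus strand), varied most. Its libraries stood at 6.49, 27.2 and 40.4 CPM in the lowest, median and highest case in HET, against 0.163, 15.8 and 43.8 CPM in WT, a 269-fold range among WT libraries. WT 3 held 7 counts and WT 4 held 2217. For Six3 the log2 fold change was 0.74 (SE 0.79, 95% interval from -0.96 to 2.44), an interval that spans both directions. In WT, Six3 followed the striatal marker mean (r = 0.965, exact p = 0.000397, adjusted 0.00952; rho = 0.964, exact p = 0.00278; r = 0.895 without 2 libraries). In HET the relation had r = 0.526 (exact p = 0.211, adjusted 0.312; rho = 0.536, exact p = 0.236; r = -0.108 without 2 libraries), and the difference between the genotypes was not tested. Strand was ignored in counting, and 5.03% of the exonic bases of Six3 also belong to other genes. Which genes hold these bases is not given here. Among the genes that overlap Six3, the antisense gene Six3os1 had the most counts. Six3os1 averaged 9.46 ± 4.81 CPM in HET and 4.79 ± 5.20 CPM in WT, and reads of this pair cannot be told apart by strand. The HET list had 1 peak near the far end of Six3 (85628185 to 85628351).

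Six4, which encodes a homeodomain transcription factor (ENSMUSG00000034460, chromosome 12, 73099609 to 73113456, minus strand), was low, with 24 to 97 counts in HET and 48 to 74 in WT. It stood at 0.626, 1.80 and 2.76 CPM in the lowest, median and highest HET library, against 1.13, 1.68 and 1.78 CPM in WT. HET libraries lay on both sides of the WT range, 2 below and 4 above it. The coefficient of variation was 46.9% in HET and 17.5% in WT, and the log2 fold change 0.07 (SE 0.28, 95% interval from -0.52 to 0.67). In WT, Six4 moved with the excitatory marker mean (r = 0.888, exact p = 0.00595, adjusted 0.0317; rho = 0.786, exact p = 0.0480; r = 0.809 without 2 libraries), while in HET r was -0.380 (exact p = 0.432, adjusted 0.461), and the difference between the genotypes was not tested. A HET peak (73112529 to 73112716) lay 834 bases into the gene.

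Dach1 (ENSMUSG00000055639, chromosome 14, 97786853 to 98169765, minus strand) encodes a corepressor related to SKI. It stood at 10.3, 18.5 and 35.4 CPM in the lowest, median and highest HET library, against 4.91, 8.93 and 23.7 CPM in WT. The groups overlapped, with 2 HET libraries above the highest WT library, WT 4. The log2 fold change was 0.87 (SE 0.37, unadjusted 95% interval from 0.08 to 1.67), with an adjusted p of 0.186 in edgeR. In WT, Dach1 moved with the striatal mean (r = 0.944, exact p = 0.00238, adjusted 0.0190; rho = 0.857, exact p = 0.0238; r = 0.898 without 2 libraries) and against the excitatory mean (r = -0.891, exact p = 0.00337, adjusted 0.0202; rho = -0.929, exact p = 0.00675; r = -0.798 without 2 libraries). In HET its relation to the striatal mean had r = 0.872 (exact p = 0.0135, adjusted 0.0648). With the striatal mean as a covariate, an alternative chosen after seeing the data, the log2 fold change was 0.89 (SE 0.17, adjusted p 0.0335 in edgeR), and with all 3 tissue means 0.78 (SE 0.20, adjusted p 0.142). Without WT 4 it was 1.18 (adjusted p 0.0486), and without any other single library the adjusted p lay between 0.171 and 0.313. Dach1 passed the threshold in 3 of 25 alternatives. The HET peak at its start covered 98169581 to 98169939, and the second one covered 97864153 to 97864560.

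Dach2 (ENSMUSG00000025592, chromosome X, 113297510 to 113836386, plus strand) is the second DACH corepressor. It stood at 1.67, 2.22 and 3.88 CPM in the lowest, median and highest HET library, against 0.325, 0.908 and 1.88 CPM in WT, with 64 to 149 counts in HET and 14 to 95 in WT. The groups overlapped only through WT 4, since 5 HET libraries lay above it and the other WT libraries lay below every HET library. The log2 fold change was 1.30 (SE 0.34, 95% interval from 0.57 to 2.02), a mean 2.46-fold higher in HET, with an adjusted p of 0.0679 in edgeR. Without WT 4 it was 1.55 (adjusted p 0.0145), and without any other single library the adjusted p lay between 0.0570 and 0.134. With the striatal mean as a covariate, an alternative chosen after seeing the data, it was 1.42 (adjusted p 0.0463). It was 1.22 with the excitatory mean (adjusted p 0.222), 1.28 with all 3 tissue means (0.145) and 1.38 among polyA-labelled libraries (0.424 in edgeR). Dach2 passed the threshold in 5 of 25 alternatives. In WT, Dach2 moved with the striatal mean (r = 0.946, exact p = 0.000595, adjusted 0.00952; rho = 0.964, exact p = 0.00278; r = 0.880 without 2 libraries), and in HET r was -0.00216 (exact p = 0.995, adjusted 0.995), a difference between the genotypes that was not tested. No peak of either list lay within 5 kb, and the nearest was 112 kb away in both.

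Eya4 in WT moved against the striatal mean (r = -0.910, exact p = 0.00317, adjusted 0.0202; rho = -0.893, exact p = 0.0123; r = -0.879 without 2 libraries), opposite in sign to Six3, Dach1 and Dach2. In HET r was 0.490 (exact p = 0.260, adjusted 0.347), and the difference was not tested. Against the thalamic mean, Eya4 in HET had r = -0.830 (exact p = 0.0161, adjusted 0.0701) and rho = -0.964 (exact p = 0.00278, adjusted 0.0267). All 8 thalamic markers had positive log2 fold changes (HET over WT), and edgeR called 0. Of these 8 markers 3 had an unadjusted p under 0.05, against 22.2% of all genes tested. Of the 48 relations, 9 had an adjusted p under 0.05 by Pearson's r, 7 of them in WT and 2 in HET, and each kept its sign without 2 libraries. By Spearman's rho 7 of 48 passed. Of the 9, 4 did not pass by rho (exact permutation): Eya4 with the excitatory mean in HET and with the striatal mean in WT (adjusted p = 0.0656 each), Six4 with the excitatory mean in WT (0.128) and Dach1 with the striatal mean in WT (0.0879). The 3 marker means do not vary separately. Among WT libraries WT 4 was lowest in the excitatory mean and highest in the striatal mean. Among HET libraries HET 4 was lowest in the excitatory and highest in the thalamic mean, and HET 6 the reverse. Relations of a member with different means are therefore not separate findings, and their overlap was not tested. How far tissue content enters the differences between HET and WT was not tested beyond the covariate fits given here.

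**Figure D4:**
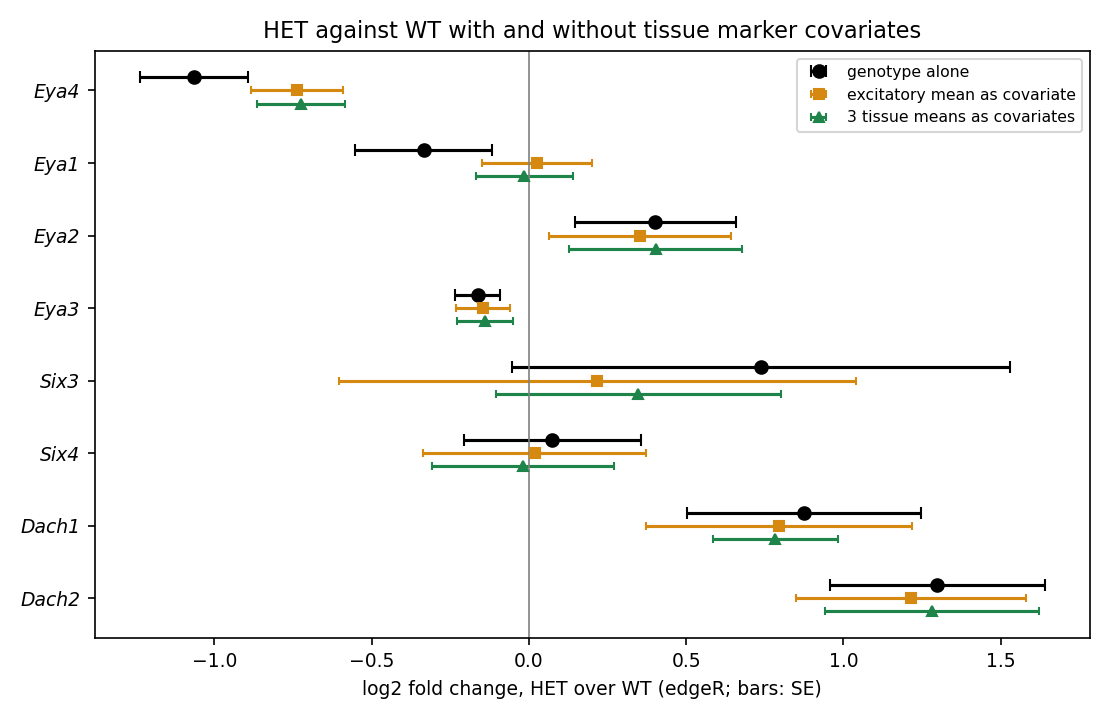
Log2 fold changes of the 8 members (HET over WT, edgeR) with SE bars, from the fit with genotype alone, with the excitatory marker mean as a covariate and with 3 tissue means. Eya4 lies at -1.06, -0.74 and -0.72, Dach2 at 1.30, 1.22 and 1.28, and Eya1 moves to about 0 with either covariate set.

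Other genes of the network were looked at as 3 lists. Of 9 further SIX-family and PAX-family genes, 6 were tested and edgeR called 0, with 0 at an unadjusted p under 0.05. Their median log2 fold change was 0.14, against 0.02 over all 18050 genes tested. The smallest p values belonged to Six2 (0.836 ± 0.302 CPM in HET, 1.11 ± 0.277 CPM in WT, log2 fold change -0.41), Six6 (0.838 ± 1.17 CPM in HET, 0.323 ± 0.434 CPM in WT, 1.35) and Pax2 (0.507 ± 0.172 CPM in HET, 0.399 ± 0.246 CPM in WT, 0.35). Six2 and Six6 are further homeodomain genes of the family, with known parts in kidney and in eye and pituitary.

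Of 18 cofactors and partners of EYA, SIX-family and DACH proteins (Groucho-type TLE proteins, SKI proteins, histone deacetylases and others) all were tested and edgeR called 0, with 4 at an unadjusted p under 0.05. Their median log2 fold change was -0.13, with 7 positive and 11 negative. H2afx, whose histone product is a substrate of the EYA phosphatase, averaged 24.7 CPM in HET and 28.0 CPM in WT (log2 fold change -0.18, SE 0.06, adjusted p 0.0957 in edgeR). Gnaz, a G protein alpha subunit that binds EYA2, averaged 86.7 CPM in HET and 100.0 CPM in WT (-0.21, adjusted p 0.174), and Skil, whose product is a SKI-type corepressor, 71.9 CPM in HET and 90.3 CPM in WT (-0.33, adjusted p 0.176). Of 10 genes reported as targets of SIX-family, EYA or DACH proteins 7 were tested, and 0 were called, with 3 at an unadjusted p under 0.05 and a median of 0.00. The cytoskeletal linker gene Ezr averaged 48.2 CPM in HET and 71.8 CPM in WT (-0.58, adjusted p 0.1495 in edgeR), the sodium, potassium and chloride transporter gene Slc12a2 110 CPM in HET and 88.3 CPM in WT (0.32, adjusted p 0.165) and the cyclin gene Ccnd1 31.9 CPM in HET and 38.3 CPM in WT (-0.26, adjusted p 0.181). The muscle genes Myog, Myod1 and Myf5 had 21, 58 and 13 counts over all 14 libraries and were not tested. Across the 3 lists DESeq2 called 1 gene (H2afx, lower) and limma-voom 4 (H2afx, Gnaz and Ezr lower, Slc12a2 higher) of 31 tested, which is 3.23% and 12.9%. Over all 18050 genes DESeq2 called 8.33% and limma-voom 10.7%, so these list counts were below and near the share over all genes. Over all genes 22.2% had an unadjusted p under 0.05.

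Of 171 annotated genes within 500 kb of a member 59 were tested, and edgeR called 0. An unadjusted p under 0.05 was found for 12 of them (20.3%, against 22.2% of all genes tested). DESeq2 called 5 of the 59 (1 higher and 4 lower in HET) and limma-voom 7 (2 higher and 5 lower), which is 8.47% and 11.9% and near the 8.33% and 10.7% of all genes. Around Eya4, 4 of 17 such genes were tested, 0 had an unadjusted p under 0.05 in edgeR, and neither DESeq2 nor limma-voom called any. The nearest to its start were the ribosomal protein gene Rps12 (170 CPM in HET, 164 CPM in WT, log2 fold change 0.05), the transporter gene Slc18b1 (17.5 CPM in HET, 17.6 CPM in WT, -0.00) and Tbpl1, a relative of the TATA-binding protein (44.9 CPM in HET, 47.0 CPM in WT, -0.07).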

How the data were processed

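RNA was sequenced from frontal cortex of 7 HET and 7 WT mice. Each library has 1 deposited table of unnormalized counts by gene, which the authors made with featureCounts 2.0.1 on exons by gene ID (Ensembl GRCm38, release 102, strand setting 0), per the file headers. STAR and Trimmomatic were named without versions, and for ATAC-seq Bowtie2 2.4.4, SAMtools 1.9 and MACS3, per the submitters' processing notes. The deposited peak lists give chromosome, start and end on mm10 (GRCm38) with no score; ATAC-seq depth, caller settings and which libraries were merged are not stated there. The Hi-C data and the PAT and Control samples were not used here.

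Of 55487 gene IDs 55141 matched a symbol. Genes passing filterByExpr (18050) received TMM factors, and genotype was tested with the robust quasi-likelihood fit of edgeR 4.0.16 without other terms (two-sided, Benjamini-Hochberg over all genes, threshold 0.05). The fit was tested on simulated data. SE and intervals of log2 fold changes come from this fit and are not adjusted for the number of genes. Log2 CPM used a prior count of 2. P-values measure the spread between libraries of separate mice, as far as the labels say. RPKM used the exonic length in the files. The members and lists were chosen with earlier results of these data known. Genes named beyond the members were the 3 with the smallest p in each list and the 3 tested genes nearest the start of Eya4. Tested genes overlapping a member and the 5 most like Eya4 (predicted genes left out, and genes averaging under 0 in log2 CPM) were named too. So was the gene of each marker list with the highest WT mean. Npy, Otx2 and Slc17a6 were named after their values were seen. Pax3, Pax7, Myog, Myod1 and Myf5 were named outside these rules. Further markers covered interneurons, astrocytes, oligodendrocytes, microglia, endothelium, meninges, choroid plexus and muscle. The alternatives tried were a DESeq2 1.42.0 test, edgeR with size factors of that tool, limma-voom 3.58.1 with sample weights, 2 other filters, an adjusted p under 0.1, a replicate block, polyA-labelled libraries, marker means as covariates and each library left out. The striatal mean alone as a covariate and the fit without HET 4 and WT 4 were chosen after seeing the data.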

Additional observations from a re-analysis of the deposited data

Results flagged for a closer look

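Of 16 groups of 7 libraries (8 members, 2 genotypes), 2 held a library far from the others by Dixon's ratio, and chance gives about 1 in 20 groups. Eya1 stood at 14.87 CPM in WT 3, where the gap to the next WT library made up 0.687 of the range. Eya2 stood at 6.775 CPM in WT 4, with a ratio of 0.691. WT 4 was also the highest WT library for Six3, Dach1 and Dach2 and the lowest for Eya4 and Six4, and it had the highest striatal marker sum (2150 CPM) and the lowest excitatory marker sum (2814 CPM) among WT libraries.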

How the results depend on the processing

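The number of genes called in HET against WT was 175 and moved widely: 1195 at an adjusted p under 0.1, 1503 with DESeq2, 1934 with limma-voom, 106 with no filter, 10 with a replicate block, 4 among polyA-labelled libraries, 13 with the excitatory mean and 21 with 3 tissue means as covariates, 1198 without HET 4 and WT 4, and with single libraries left out from 11 (without HET 1 or without HET 7) to 1672 (without WT 4). The cause was not tested. The log2 fold change of Eya4 was negative in all 25 alternatives, from -1.15 to -0.72, and past the threshold in 16. It was closest to 0 with the excitatory mean (-0.74) and with 3 tissue means (-0.72), and with the replicate block it was -1.05 (adjusted p 0.0610 in edgeR). The labels do not say whether the replicate numbers pair mice. Deviations of same-numbered libraries correlated between -0.284 and 0.334. These values cannot decide it, since libraries with different numbers were not compared. Dach1, Dach2, Eya2, Eya3 and Six3 also had 1 sign in all 25. Eya1 changed sign in 1 and Six4 in 5. Dach2 passed the threshold with DESeq2 (adjusted p 0.00632), limma-voom (0.0185), the striatal mean and both fits without WT 4. Cut to the 19272 widest peaks, the HET list held 4 peaks at members in place of 12. In the 3 network lists DESeq2 called 1 gene, limma-voom 4 and edgeR 0 to 3 with single libraries left out, 3 of them without HET 6 (Pax3, H2afx and Slc12a2). By Spearman's rho 7 of 48 marker relations passed in place of 9. Single libraries held as few as 24 counts of Six4, 14 of Dach2 and 7 of Six3, and peaks had no replicates.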

Other observations

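In HET 4, the library with the fewest excitatory markers (908 CPM), Six3 stood at 32.8 CPM with 235 CPM of striatal markers and 1906 CPM of thalamic markers. WT 3, with a like striatal sum of 239 CPM, had 0.163 CPM of Six3 and 185 CPM of thalamic markers. Pax7, a Pax gene of the midbrain and of muscle stem cells, did not pass the filter on low counts. Its counts ranged from 0 to 615 between libraries, and those of Pax3 from 0 to 68.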
